A study of Mus musculus with 6 samples.

Results

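Opposite-strand transcripts are RNAs copied from the DNA strand facing a named gene, and in the mouse they carry that gene's symbol followed by os. The deposited tables held 193 symbols ending in os or in os and a digit. In 22 of these, such as Fos and Nos1, the letters before os are no symbol of the table. The other 171 symbols, of 24946 named genes, were taken as opposite-strand transcripts and were set beside their 163 distinct partner genes. All 167 of them that the GENCODE M21 annotation of mm10 holds lay on the strand opposite to the partner, so that the label held for each one that could be checked. Ggnbp2os, Msx1os, Peg3os and Stk35os1 were not found there under these names.

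Such transcripts are a mixed class. Some start beside the start of the partner and run away from it, others run across its exons or introns, and a minority encode proteins of their own. A few noncoding ones act on the partner: in the mouse, Dlx6os1 (Evf2) recruits Dlx proteins to enhancers of the Dlx5 and Dlx6 genes in developing GABAergic neurons, and an antisense RNA to Uchl1 raises the translation of Uchl1 mRNA through a repeat element. Many noncoding RNAs stay in the nucleus, while protein-coding ones are taken up by ribosomes.

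The libraries came from Nts-Cre mice of the C57Bl6J strain, in which the neurotensin gene drives Cre, after AAV5-Introvert-NBL10 had been injected into the lateral septum. The virus makes an EGFP-tagged ribosomal protein L10a only in cells with Cre. Tissue was taken 3 or 4 weeks later, 4 to 6 mice were pooled for each of 3 replicates, and the labels give no age. Each pool gave an Input library, from RNA of the dissected tissue set aside before the immunoprecipitation, and an IP library, from RNA held by polysomes that antibodies against EGFP pulled down, so that both groups share the mice, the Cre allele and the virus. Viral-TRAP, as this method is called, compares a ribosome-bound RNA of the tagged cells with the whole RNA of all cells. A difference can therefore come from the cell type or from how far an RNA is held by ribosomes, and these cannot be told apart here. Nor can fewer cells of a type be told apart from less RNA per cell.

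The deposited values are read counts divided by DESeq2 factors, called normalized counts below. They added up to between 16828024 and 17129150 in the Input libraries and between 22781827 and 24958423 in the IP libraries. At the worth of 1 read estimated for each library these totals stand for about 9320000 to 11000000 reads. Nts rose from 80.0, 150 and 210 normalized counts in Input to 2251, 3346 and 1783 in IP. Of the markers listed for other cells, 8 of 8 astrocyte, 8 of 8 oligodendrocyte, 6 of 6 microglial and 6 of 6 glutamatergic neuron genes were lower in IP. So were 4 of 5 genes of oligodendrocyte precursors (Cspg4 did not pass, at 0.59), 3 of 6 of vessel cells and 3 of 5 tested genes of ependyma and choroid plexus, while 8 of 8 lateral septum and 7 of 8 GABAergic genes were higher. Beside these lists and the next one, 32.2% of all genes tested were lower and 31.4% were higher. Among tested genes of a list of RNAs known to stay in the nucleus, 7 of 11 were lower and 0 were higher in limma, also at an unadjusted p under 0.05, with a median log2 fold change of -2.25. Fold changes are IP over Input on the scale log2(value + 1), which understates the change of low values. Tests are limma's, adjusted over all genes by the method of Benjamini and Hochberg, and a gene passed at an adjusted p under 0.05.

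Most opposite-strand transcripts were scarce. Of the 171, 47 were listed at 0 in every library, 60 were present but too low, and 64 reached a value of 10 in at least 3 of the 6 libraries and were tested. Among those not tested, the highest value in any library was 27.6. Cdiptos lay just inside this limit, whose value of rank 3 was 10.8, and Hk1os just outside it, with 9.19 at that rank. Of the 64 tested, 29 start within 1000 bases of the partner's start (head to head, with or without overlap), 26 overlap the partner in another way, 5 lie apart from it, and 4 had no position. Their longest annotated transcript had a median length of 1573 bases, against 3434 for the partners. By normalized counts per kilobase in Input, the transcript exceeded its partner in 14 of 57 pairs with known lengths.

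Of the 64 tested, 26 rose in IP, 9 fell and 29 did not pass. Across all genes tested, 31.4% were higher and 32.2% were lower. The share that rose among these transcripts was 40.6% and the share that fell 14.1%, and the median log2 fold change was 0.35 against -0.06 over all genes. Rab26os and Tmem150cos, which rose, and Ppifos, which fell, reached 10 in the libraries of 1 group only, so that they had to differ to be tested at all. They are described below by their values with no p, and without them 24 of 61 rose (39.3%) and 8 fell (13.1%). A change of more than 2-fold was reached by 17 of the 26 and by 6 of the 9, where 12.6% and 17.2% of all genes passed both limits. Every IP library lay above every Input library for 29 transcripts and below for 9, as it did for 34.2% and 35.4% of all genes. Of the other 594 noncoding genes tested, by their GENCODE class, 29.5% were higher and 15.2% lower, with a median of 0.29. The difference between the classes was not tested.

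**Figure D1:**
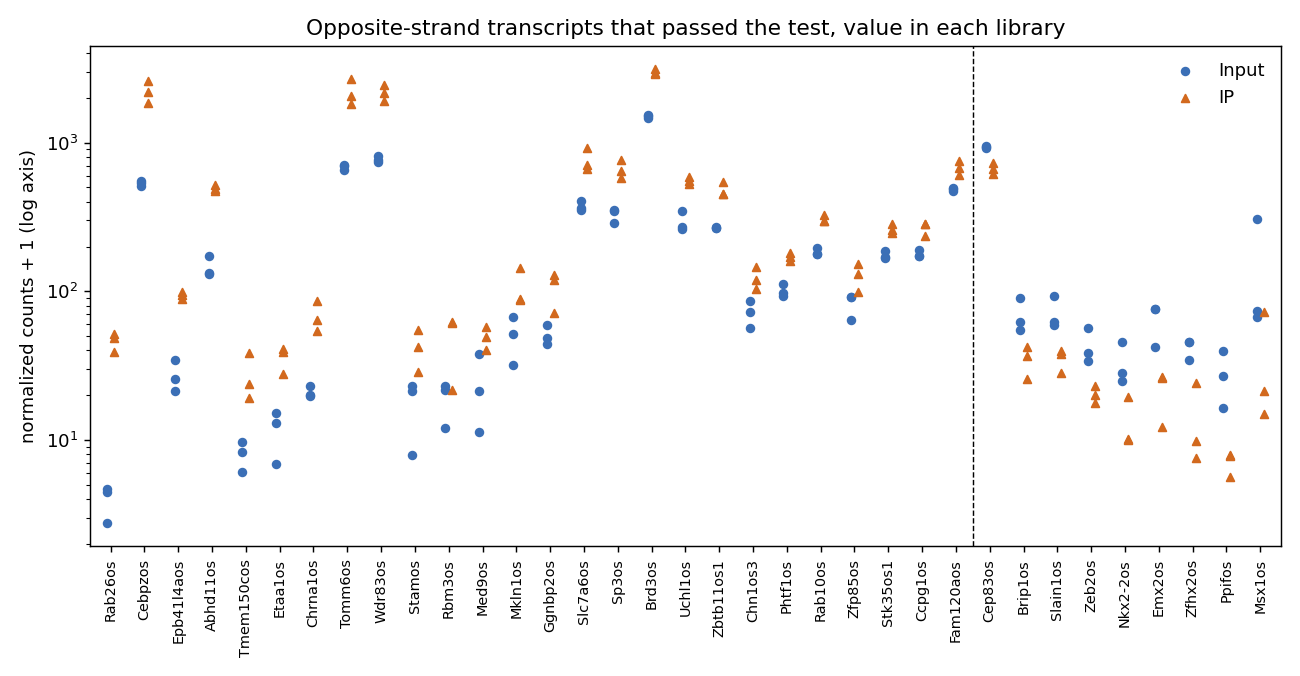
Normalized counts plus 1 (log axis) of the 35 opposite-strand transcripts that passed the test, in 3 Input (circles) and 3 IP (triangles) libraries, ordered by fold change. The 26 that rose stand left of the dashed line, from Rab26os to Fam120aos, and the 9 that fell stand right of it, from Cep83os to Msx1os.

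These counts moved with length and with scaling. Short transcripts were higher in IP among all genes: the median log2 fold change was 0.74 in the shortest of 4 equal groups of genes by length (up to 1964 bases) and -0.53 in the longest, and Spearman's rho with length was -0.45 across 14696 genes, which are not independent replicates. Of the 60 opposite-strand transcripts with a length, 38 belonged to the shortest group, where 19 rose and 2 fell, and 3 to the longest, where 0 rose and 2 fell. When an offset for transcript length was taken out, 11 of 60 transcripts were higher and 16 lower, where 27.3% and 28.1% of all genes passed, and the median became -0.02. Of the 26 that rose, 9 kept their call, and Ggnbp2os and Stk35os1 had no length and could not be fitted. Scaling to library size, which moved the median of all genes from -0.06 to -0.54, gave 13 higher and 15 lower, where 17.3% and 53.1% of all genes passed. Whether length itself, or a property that goes with it, sets these values was not tested.

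**Figure D2:**
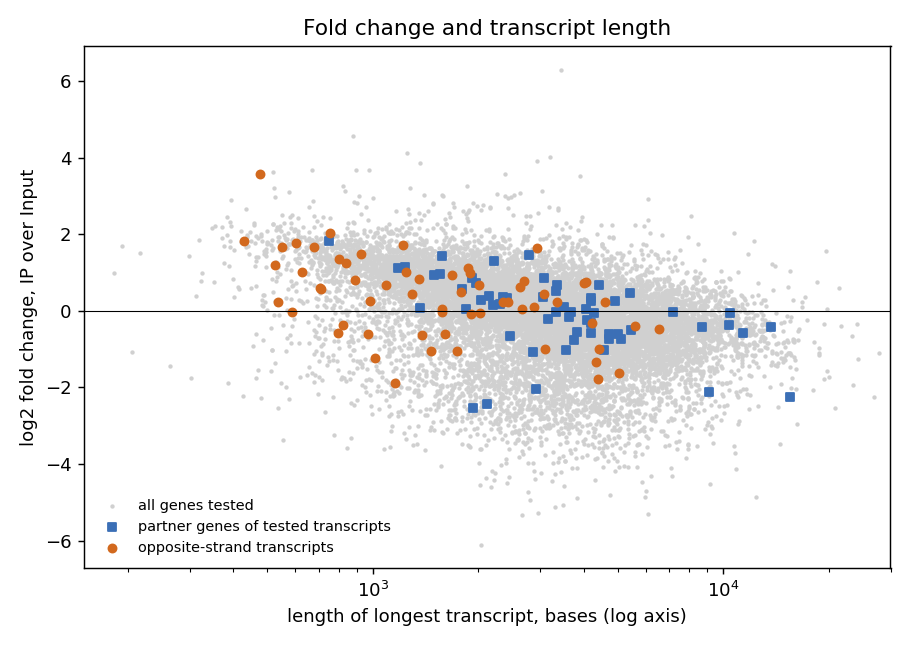
Log2 fold change of IP over Input against the length of the longest annotated transcript (log axis) for all genes tested (grey), opposite-strand transcripts (circles) and the partners of tested ones (squares). The few genes beyond either end of the length axis are not drawn. The grey cloud slopes down from short to long genes, and 38 of 60 opposite-strand transcripts lie in the shortest of 4 equal groups of genes by length.

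Rab26os had the largest fitted change among the tested transcripts, with Input values below the limit for testing. It lies at chr17:24528248-24528744 on the plus strand. By GENCODE this is within an intron of Rab26, which encodes a small GTPase of secretory vesicles, and by RefSeq it is outside Rab26. Its values were 1.74, 3.68 and 3.43 in Input and 47.6, 50.7 and 38.0 in IP, a log2 fold change of 3.58 (SE 0.57). In reads these are 1, 2 and 2 against 21, 22 and 17, each within 0.014 of a whole number, which gives a ratio of 15.4 with a 95% interval of 6.25 to 49.2 that covers counting error only. Rab26 itself rose from 1587, 1447 and 1350 to 4627, 3302 and 3930 (log2 fold change 1.42, SE 0.12). Rab26os thus went from 0.110%, 0.254% and 0.254% of the Rab26 value in Input to 1.03%, 1.53% and 0.966% in IP. The groups did not overlap, but Rab26os had to be higher in IP to be tested. The ratio was 2.16 higher on the log2 scale (SE 0.54) and 1.16 higher with the length offset, which left Rab26os itself at 1.97.

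The window around its start is shown because it carries a TATAAA motif, alone among the windows printed here. It spans chr17:24528001-24528300 on the plus strand of GRCm38.p6 (RefSeq), and capitals mark the first 50 bases of the transcript.
Rab26os: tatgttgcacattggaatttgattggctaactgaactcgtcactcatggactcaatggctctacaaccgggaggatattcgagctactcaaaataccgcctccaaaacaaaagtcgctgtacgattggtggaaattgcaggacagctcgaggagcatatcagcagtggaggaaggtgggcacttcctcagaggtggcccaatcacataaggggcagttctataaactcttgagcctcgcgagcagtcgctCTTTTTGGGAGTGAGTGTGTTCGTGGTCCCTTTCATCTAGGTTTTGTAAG

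A small group of the opposite-strand set encodes proteins. GENCODE classes 11 of the 171 as protein-coding, and of the 6 tested 5 rose and 0 fell in limma, also at an unadjusted p under 0.05, with a median log2 fold change of 1.01. Among the 58 others, 21 rose and 9 fell, with a median of 0.24, beside 31.4% and 32.2% of all genes. The coding ones are also the shorter group, with a median of 969 bases against 1644. Whether they differ from the rest beyond length was not tested.

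Cebpzos, which encodes a small protein, overlaps the 3′ part of Cebpz, a gene for ribosome assembly, at chr17:78916500-78920306. Its values were 549, 538 and 512 in Input and 2619, 1862 and 2184 in IP (log2 fold change 2.04, SE 0.12, adjusted p = 5.48e-08). Cebpz had 352, 339 and 441 in Input and 280.0, 349 and 320.4 in IP, a change that did not pass (-0.25, adjusted p = 0.177). Relative to Cebpz the transcript went from 156%, 159% and 116% to 935%, 534% and 682%, so that every IP library lay above every Input library. The pair shares 171 exon bases, 15.1% of the exons of Cebpzos. This ratio and the rise of Cebpzos both passed with the length offset (0.75 and 0.79).

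Wdr83os encodes a subunit of a chaperone complex in the membrane of the endoplasmic reticulum. It went from 813, 767 and 735 to 2453, 1893 and 2146 (log2 fold change 1.48, SE 0.11), and its head-to-head partner Wdr83, a WD-repeat scaffold protein, from 680.4, 620.5 and 606 to 1673, 1251 and 1321 (1.14, SE 0.12). With the length offset both still passed, at 0.39 and 0.31. Both rose, and 52.3% of the exon bases of Wdr83os lie in exons of Wdr83 by GENCODE, while by RefSeq the genes do not overlap. Brd3os had the highest level of all, 1528, 1504 and 1457 in Input and 3146, 2904 and 2949 in IP (1.00, SE 0.09, adjusted p = 6.38e-07). It lies beyond the far end of Brd3, which encodes a bromodomain reader of acetylated histones, and Brd3 rose less, from 1111, 1032 and 1062 to 1517, 1423 and 1474 (0.46). That rise was lost under scaling to library size (-0.02), and the rise of the ratio (0.54) turned to a fall with the length offset (-0.30).

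Slc7a6os, whose yeast counterpart Iwr1 helps bring RNA polymerase II into the nucleus, is described with the opposite pairs. Ccpg1os rose from 173, 189 and 173 to 284, 281 and 236 (0.58, adjusted p = 0.00799), beside Ccpg1, a receptor for the breakdown of endoplasmic reticulum (-0.21, adjusted p = 0.0801). With the length offset Ccpg1os fell (-0.73), with pool 1 left out it did not pass (0.51, adjusted p = 0.0562), and the call was also lost when libraries were scaled by their totals (0.10) or by upper quartiles (0.35). Cdiptos, the last of the 6, had 11.3, 10.8 and 9.25 in Input and 7.43, 0 and 12.6 in IP and did not pass (adjusted p = 0.285). Its partner Cdipt, the phosphatidylinositol synthase, rose (0.72).

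Among noncoding transcripts, Tomm6os, Abhd11os, Epb41l4aos, Etaa1os, Chrna1os and Tmem150cos followed Rab26os. Tomm6os had 651, 695 and 712 in Input and 2668, 1817 and 2074 in IP (1.65, SE 0.13, adjusted p = 3.36e-07), and the length offset left it at 1.65. Tomm6, a subunit of the import pore of the outer mitochondrial membrane, rose by the most of all partners, from 1524, 1694 and 1618 to 7137, 5102 and 5149 (1.83). Tomm6os was at 41.0% to 44.0% of Tomm6 in Input and 35.6% to 40.3% in IP, and the ratio did not pass (-0.18, adjusted p = 0.172). With the length offset it rose (1.08), Tomm6 being 749 bases and Tomm6os 2944 bases long.

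Abhd11os, which GENCODE classes as a transcribed pseudogene, went from 132, 172 and 130 to 519, 473 and 484 (1.77, SE 0.16), beside Abhd11, a mitochondrial hydrolase (0.93). Chrna1os went from 19.2, 22.1 and 18.9 to 63.4, 53.0 and 84.9 (1.67, SE 0.35). Its partner Chrna1, the alpha subunit of the muscle acetylcholine receptor, was below 7 in each library and was not tested. Etaa1os had 5.88, 11.99 and 14.1 in Input and 40.0, 37.8 and 26.7 in IP (1.68, SE 0.50, adjusted p = 0.011), and its partner Etaa1, an activator of the ATR kinase, did not pass (0.33), though it rose with the length offset (0.63). Tmem150cos had 5.07, 7.29 and 8.62 against 37.2, 18.2 and 22.8 (1.72, SE 0.57), with all Input values below the limit for testing, while Tmem150c rose by 0.85. For Abhd11os, Chrna1os and Etaa1os no IP library reached down to an Input library, while for Tmem150cos the limit for testing fixed this in advance. The calls of Tmem150cos and Etaa1os were each lost with pool 1 left out (1.26 and 1.23), that of Tmem150cos also without Input 1 (1.54) or IP 1 (1.45) or with libraries scaled by their totals (1.28), and neither passed with the length offset (0.88 and 0.17). Abhd11os did not pass with it either (0.34, adjusted p = 0.0942).

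The 6 transcripts with the largest falls were Msx1os, Ppifos, Zfhx2os, Emx2os, Nkx2-2os and Zeb2os. Msx1os, antisense to the homeobox gene Msx1, had 73.2, 66.2 and 306 in Input and 20.4, 13.9 and 71.5 in IP (log2 fold change -2.02, SE 0.62, adjusted p = 0.0128). Msx1 followed it across pools, with 75.5, 127 and 456 in Input and 11.0, 18.8 and 93.6 in IP (-2.55). Pool 3 was the highest for both genes in both groups, so that IP 3 lay above Input 2 for Msx1os and above Input 1 for Msx1. Pool 3 was also the highest for the choroid plexus markers Ttr (22.3, 607 and 12850 in Input, 16.1, 111 and 1699 in IP), Kl and Folr1, and not set apart for the ependymal markers, such as Foxj1 with 156, 221 and 249 in Input and 24.1, 44.4 and 39.2 in IP. The summed level of this list, most of it Ttr in pool 3, ranged from 529 to 13920 in Input and from 148 to 1925 in IP. Its part in the result was not tested. Within each pool IP lay below Input for both genes, and with the pool as a block in the fit Msx1os kept its call. In fits without that block, Msx1os did not pass without Input 3 (-1.31, adjusted p = 0.0717), IP 2 (-1.55) or pool 2 (-1.94), and Msx1 did not pass without pool 2 (-2.47). Neither passed when variances did not follow the mean level (adjusted p = 0.0768 and 0.0647).

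Emx2os and Emx2, a homeobox gene of the dorsal forebrain, start 263 bases apart and fell together. Emx2os went from 75.3, 74.9 and 41.1 to 25.3, 25.3 and 11.3 (-1.61, SE 0.43, adjusted p = 0.00552) and Emx2 from 73.5, 88.4 and 47.9 to 15.8, 16.2 and 15.5 (-2.03, SE 0.38). Both were low in Input 3, no IP library overlapped an Input library for either, and the ratio did not pass (0.42, adjusted p = 0.374). Emx2os kept its call with each library or pool left out and with the length offset (-1.23).

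Nkx2-2os lies across Nkx2-2, a transcription factor of oligodendrocyte precursors. It had 24.0, 27.4 and 44.3 in Input and 9.22, 18.4 and 9.05 in IP (-1.34, adjusted p = 0.0339), and Nkx2-2 went from 118, 149 and 118 to 21.9, 18.4 and 30.3 (-2.42). Zeb2os, whose human counterpart affects the splicing of ZEB2, had 37.7, 55.4 and 32.7 against 22.0, 16.8 and 18.9 (-1.06, adjusted p = 0.0345). Zeb2, a zinc finger homeobox factor of many glial and neuronal lineages, went from 618, 573 and 517 to 133, 109 and 152 (-2.12). Groups did not overlap for any of these genes. All 8 oligodendrocyte markers fell too, from summed levels of 102200 to 146600 in Input to 14110 to 22400 in IP. So did 8 of 8 astrocyte, 6 of 6 microglial, 6 of 6 glutamatergic and 4 of 5 precursor genes, so the fall was not particular to oligodendrocyte genes. A link to any of these cells was not tested.

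Nkx2-2os was near the lower limit of what was tested, while Zeb2os was above 10 in each library, at 16.8 to 55.4. Nkx2-2os was lost without Input 1 (-1.51), Input 2 (-1.42), Input 3 (-1.08), IP 1 (-1.19), IP 3 (-1.18), pool 1 (-1.36) or pool 3 (-0.92) and with the length offset (-1.01). Zeb2os was lost without Input 1 (-1.12), Input 2 (-0.84), IP 2 (-0.97), IP 3 (-1.05) or any of the pools (-1.21, -0.76 and -1.21). The partners of both kept their calls in all these settings. Of the 9 transcripts that fell, only Emx2os and Cep83os kept the call in all 9 leave-out settings (1 library or 1 pool at a time), and of the 26 that rose 15 did.

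Zfhx2os, which shares 73.1% of its exon bases with the homeobox gene Zfhx2, went from 33.8, 44.5 and 44.5 to 8.88, 23.2 and 6.60 (-1.77, SE 0.52, adjusted p = 0.00947). Zfhx2 did not pass (-0.38, adjusted p = 0.153), and the ratio fell by 1.39 on the log2 scale (adjusted p = 0.028). Without pool 3 Zfhx2os did not pass (-1.36). The ratio did not pass without Input 1 (-1.46), Input 2 (-1.45), Input 3 (-1.26), IP 1 (-1.25), IP 3 (-1.08), pool 1 (-1.31) or pool 3 (-0.95). Zfhx2os, like Nkx2-2os, reached 10 in only 1 IP library. Cep83os, at 918, 930.3 and 948 in Input and 667, 619 and 725 in IP, fell least (-0.48, SE 0.11, adjusted p = 0.00178), and its call was lost with the length offset (-0.03). Its head-to-head partner Cep83, a centriole protein, did not pass (-0.17).

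Some of the best known members did not pass. Dlx6os1 had 556, 459 and 546 in Input and 628, 602 and 589 in IP (log2 fold change 0.23, SE 0.12, adjusted p = 0.123). It passed with the length offset (0.58, adjusted p = 0.00121). Its partner Dlx6, a homeobox gene of GABAergic neurons, rose from 48.2, 31.5 and 55.2 to 86.6, 130.1 and 114 (1.29, SE 0.30), and the ratio fell from 1150%, 1460% and 988% of Dlx6 to 726%, 462% and 517% (-1.07, SE 0.28, adjusted p = 0.00651). The fall of the ratio did not pass in the length-offset setting (-0.43) or without pool 2 (-0.79, adjusted p = 0.0834). Dlx6os1 spans all of Dlx6 but shares no exon base with it.

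Six3os1, antisense to the forebrain homeobox gene Six3, had 110.2, 142 and 134 in Input and 74.1, 83.0 and 151 in IP and did not pass (-0.39, adjusted p = 0.236), and neither did Six3 (-0.04). IP 3 lay above all Input libraries while IP 1 and 2 lay below them, and without IP 3 both Six3os1 (-0.70, adjusted p = 0.0283) and its ratio to Six3 (-0.64, adjusted p = 0.0353) passed as lower. Pax6os1 had 20.5, 10.9 and 13.7 against 11.6, 9.18 and 2.27 (-1.06, adjusted p = 0.209), beside a rise of the eye and forebrain regulator Pax6 (0.67), which did not pass without pool 3 (0.57, adjusted p = 0.0535) or with libraries scaled by their totals (0.19).

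The partner genes as a whole were more often lower than higher. Of 163, 128 were tested, of which 26 rose (20.3%) and 51 fell (39.8%), beside 31.4% and 32.2% of all genes, with a median log2 fold change of -0.23. Of those that fell, 2, Dlx4 among them, reached 10 in Input libraries only, so that they had to differ to be tested at all. Both are partners of untested transcripts. Without them 26 of 126 rose (20.6%) and 49 fell (38.9%). For the 60 partners of tested transcripts the counts were 19 and 18 and the median 0.0014, and for the 68 partners of untested ones only they were 7 (10.3%) and 33 (48.5%) and the median -0.40. The latter were also the longer group, with a median of 4690 bases against 3434, and with the length offset the median of all 128 became 0.03. Scaling to library size gave 16 higher and 85 lower, where 17.3% and 53.1% of all genes passed. In that setting Six3os1 (-0.87) and, of the partners named here that did not pass otherwise, Ccpg1 (-0.70), Cebpz (-0.73), Cep83 (-0.65), Six3 (-0.52) and Zfhx2 (-0.86) passed as lower.

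Tomm6, Rbm3, Rab26 and Kank4 were the partners with the largest rises. Rbm3, a cold-induced RNA-binding protein, went from 1305, 1216 and 1410.0 to 3895, 3326 and 3585 (1.46, SE 0.10), and Rbm3os rose with it (1.26, adjusted p = 0.0439) from 20.6, 11.0 and 22.1 to 59.8, 20.7 and 61.0, with IP 2 inside the Input range. Rbm3os did not pass in 7 of the 9 leave-out settings, between 0.96 and 1.43: it was lost without Input 1, Input 2, Input 3, IP 1, IP 3, pool 1 or pool 3. Kank4, a regulator of the cytoskeleton, had 20.9, 20.2 and 15.4 in Input and 74.9, 46.1 and 40.3 in IP (1.42), and without pool 1 it did not pass (1.24, adjusted p = 0.0508).

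Those with the largest falls were Frmpd1, Dlx4, Bcas1 and Tspan2, all beside an opposite-strand transcript too low to test. Frmpd1, a FERM and PDZ domain protein, went from 187, 197 and 216 to 15.8, 25.4 and 11.1 (-3.52, SE 0.33). Bcas1, found in oligodendrocytes that are forming myelin, went from 657, 947 and 661 to 77.4, 206 and 96.5 (-2.68), and Tspan2, a tetraspanin of oligodendrocytes, from 1811, 1713 and 1748 to 266, 368 and 262 (-2.57). For both, no IP library came near an Input library. Dlx4, a homeobox gene, had 19.4, 25.9 and 24.0 in Input and 4.50, 0 and 4.44 in IP (-2.94), below the limit for testing in all IP libraries, or 39 reads against 4, a 7.59-fold lower level with a 95% interval of 2.74 to 29.2 for counting error.

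In 61 pairs both genes were tested. Both rose in 10, both fell in 5, they passed in opposite directions in 7, and in 39 one or neither passed. Rab26os and Tmem150cos are among the 10 and Ppifos among the 7, though each had to differ to be tested at all. Pairs moving together made up 24.6%, against 24.4% of 2425 other annotated pairs of genes on opposite strands that overlap or start within 1000 bases of each other. Opposite calls made up 11.5%, against 15.7% of all 2486 such pairs and 15.8% of the others. Across the 61 pairs the log2 fold changes of transcript and partner had a Pearson's r of 0.47 and a Spearman's rho of 0.33, and across the other pairs 0.17 and 0.16. The 2 genes of a pair share libraries and often transcript sequence. In the 38 pairs with shared exon bases by GENCODE r was 0.54, and in the 19 without it was 0.07. In the 4 pairs where at least 50% of the transcript's exon bases are shared it was 0.51. Whether shared bases have a part in r was not tested.

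Shared sequence matters for how the values are read. The cDNA kit named does not mark the strand of an RNA, and how reads on bases that both genes share were assigned is not given in the sources used here. Of the 60 tested transcripts with known exons, 38 share exon bases with the partner by GENCODE, and reads there cannot be told apart. For some of these, such as Emx2os, Mkln1os, Cdiptos and Wdr83os, the genes do not overlap by RefSeq. Which annotation was used for counting is not settled by the sources.

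**Figure D3:**
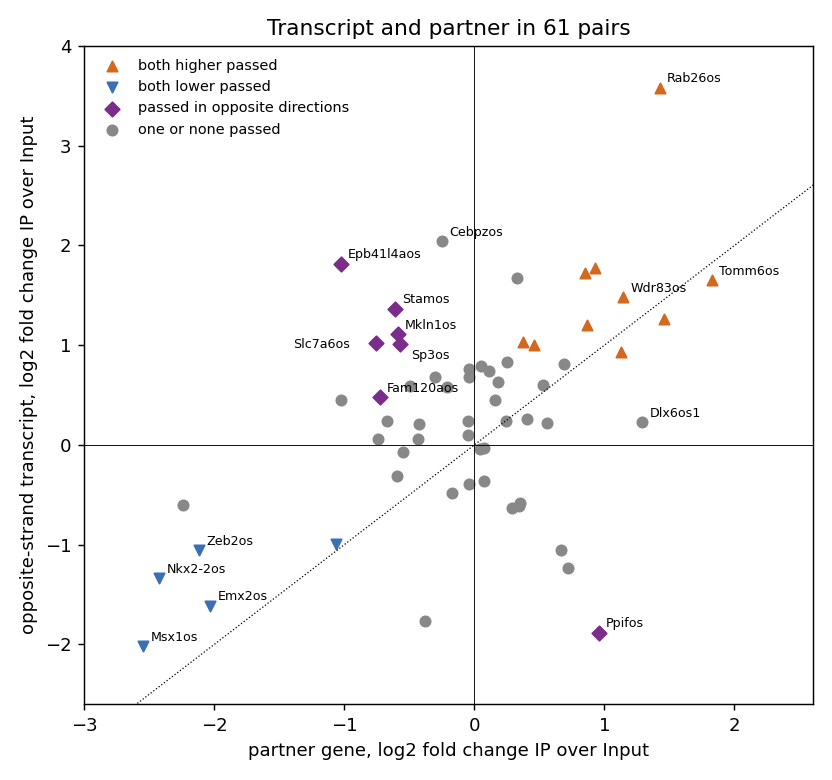
Log2 fold change of the opposite-strand transcript against that of its partner in 61 pairs, with the dotted line marking equal change. Triangles show the 10 pairs in which both rose and the 5 in which both fell, diamonds the 7 with opposite calls, and circles the 39 in which one or neither passed.

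The ratio of transcript to partner tests the difference within a pair directly, and scaling between libraries enters it only through the added value of 1. It rose in 25 of 61 pairs, fell in 4 and did not pass in 32. Rab26os is among the 25 and Ppifos among the 4, and both had to differ between the groups to be tested. The share that changed, 47.5%, lay below the 56.4% of all 2486 pairs and the 56.6% of the other pairs alone. The median change was 0.47 on the log2 scale. In 38 pairs the IP and Input ratios did not overlap. No share over all pairs was taken for this count, so it cannot be read as particular to these pairs. Scaling to library size gave the same 25 and 4. With the length offset 9 rose and 13 fell over 57 pairs, and 7 of the 25 kept their rise, so the lean towards higher ratios did not hold there. With 3 libraries in each group, the exact permutation test over libraries cannot give a two-sided p below 0.1, which every pair with separate ratios reaches.

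**Figure D4:**
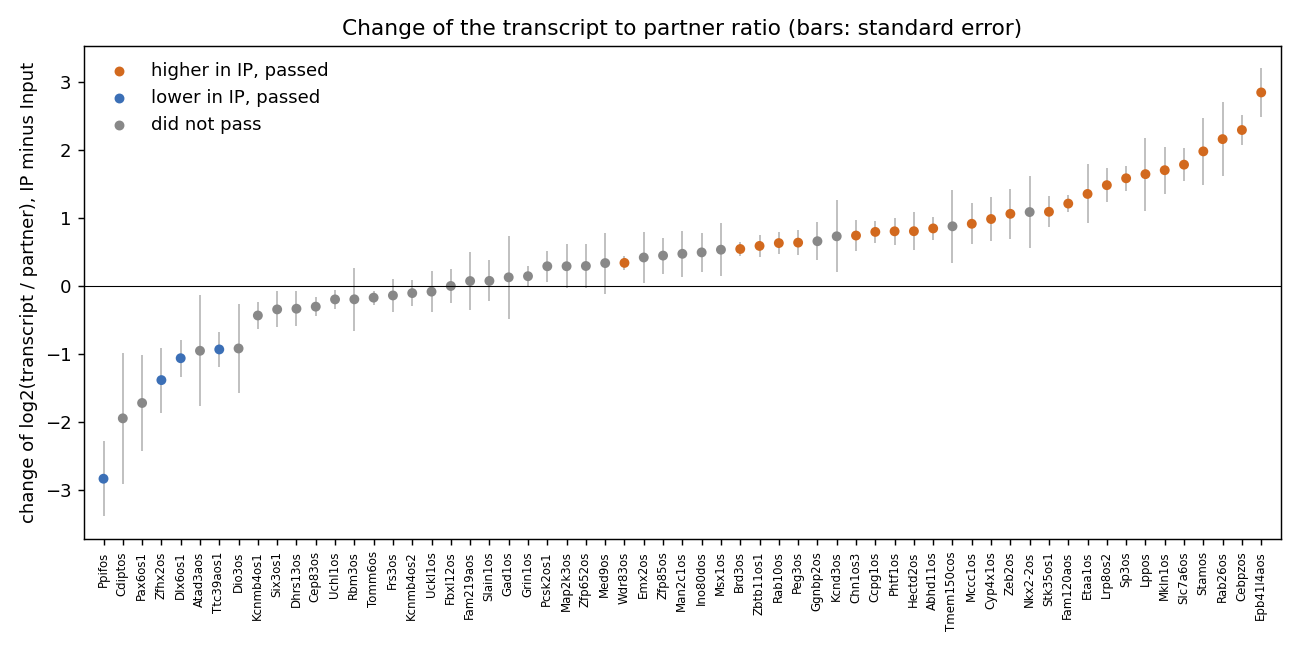
Change of the log2 ratio of transcript to partner, IP minus Input, for 61 pairs in rank order, with bars for the standard error of limma. The 25 coloured points at the right passed as higher, up to Epb41l4aos at 2.85, and 4 passed as lower, down to Ppifos at -2.84.

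The 7 pairs with opposite calls were Epb41l4aos, Slc7a6os, Stamos, Mkln1os, Sp3os, Fam120aos and Ppifos with their partners. In all but Ppifos the transcript rose while the partner fell. Epb41l4aos, which lies beyond the far end of Epb41l4a, a gene of the band 4.1 family, had 20.4, 33.3 and 24.7 in Input and 92.9, 87.3 and 98.2 in IP (1.82, SE 0.31, adjusted p = 0.000258). Epb41l4a had 120, 124 and 148 against 74.9, 79.0 and 42.4 (-1.03, adjusted p = 0.00615). The transcript was at 16.7% to 26.9% of its partner in Input and at 110% to 232% in IP. The ratio rose by 2.85 (SE 0.35, adjusted p = 5.3e-05), and by 0.98 with the length offset (adjusted p = 0.0461), where Epb41l4aos itself did not pass (0.12). Without pool 3 the fall of Epb41l4a did not pass (-0.65).

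Slc7a6os went from 403, 364 and 349 to 916, 709 and 666 (1.02, SE 0.14, adjusted p = 4.1e-05). Slc7a6, an amino acid exchanger that ends 2010 bases away, went from 160, 213 and 181 to 112, 87.9 and 128 (-0.76, SE 0.22, adjusted p = 0.00815). The groups did not overlap for either, and the ratio rose by 1.78 (SE 0.24, adjusted p = 9.8e-05) and by 0.73 with the length offset (adjusted p = 0.0214). In that setting neither gene passed alone (0.20 and -0.54), and without pool 2 Slc7a6 did not pass (-0.50).

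Sp3os overlaps the start of Sp3, a zinc finger transcription factor, and shares 109 exon bases with it. Its values were 350.3, 288 and 345 in Input and 759, 649 and 582 in IP (1.01, SE 0.14), those of Sp3 were 601, 561 and 560 in Input and 347, 383 and 432 in IP (-0.57, SE 0.13). Every Input library had less Sp3os than Sp3 and every IP library more. With the length offset, Sp3os, 628 bases long, fell (-0.39, adjusted p = 0.0208), Sp3 did not pass (-0.27) and the ratio turned from 1.58 to -0.12 (adjusted p = 0.537).

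Ppifos was the reverse case. It had 25.8, 38.4 and 15.3 in Input and 6.89, 4.61 and 6.77 in IP (-1.88, SE 0.59), below the limit for testing in all IP libraries, or 45 reads against 8, a 4.38-fold lower level with an interval of 2.04 to 10.8 for counting error. Ppif, which encodes cyclophilin D of the mitochondrial permeability pore, rose from 1021, 956 and 1029 to 2117, 1875 and 1855 (0.96, SE 0.10). The ratio changed by -2.84 on the log2 scale, and by -3.10 with the length offset. Exons of Ppif cover 79.5% of the exon bases of Ppifos. Ppifos did not pass without Input 1 (-1.86), Input 2 (-1.58), pool 1 (-1.94) or pool 2 (-1.42).

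**Figure D5:**
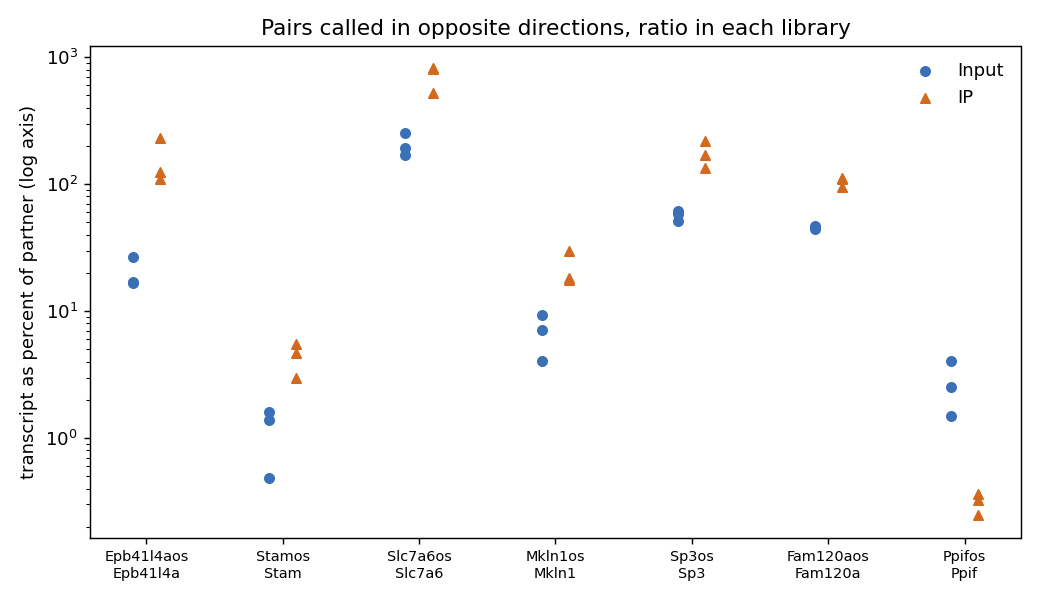
Opposite-strand transcript as a percent of its partner (log axis, ratio of normalized counts, not per length) in 3 Input (circles) and 3 IP (triangles) libraries for the 7 pairs with opposite calls. The IP ratios lie above the Input ratios in 6 pairs and below them in the pair of Ppifos and Ppif, with no overlap in any. Ppifos had to be lower in IP to be tested.

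The other pairs with opposite calls, Fam120aos, Stamos and Mkln1os, are head to head, as are Etaa1os, Med9os and Wdr83os, in which no partner fell. Their start regions are shown because both genes of a pair begin close to each other. Each window runs from 250 bases before the RefSeq start of the transcript to 50 bases after it, in the direction of the transcript, on GRCm38.p6. Capitals mark the bases that lie inside the partner gene, which is read from the other strand, and the lower-case stretch before the last 50 bases lies between the 2 starts.
Fam120aos: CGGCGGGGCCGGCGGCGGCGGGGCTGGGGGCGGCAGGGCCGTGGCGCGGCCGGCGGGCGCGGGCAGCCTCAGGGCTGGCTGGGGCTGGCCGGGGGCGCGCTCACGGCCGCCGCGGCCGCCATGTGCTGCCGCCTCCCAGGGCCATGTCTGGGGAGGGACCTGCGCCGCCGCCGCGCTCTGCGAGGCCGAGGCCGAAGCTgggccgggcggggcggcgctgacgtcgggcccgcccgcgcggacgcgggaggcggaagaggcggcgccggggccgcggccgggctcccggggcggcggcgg
Stamos: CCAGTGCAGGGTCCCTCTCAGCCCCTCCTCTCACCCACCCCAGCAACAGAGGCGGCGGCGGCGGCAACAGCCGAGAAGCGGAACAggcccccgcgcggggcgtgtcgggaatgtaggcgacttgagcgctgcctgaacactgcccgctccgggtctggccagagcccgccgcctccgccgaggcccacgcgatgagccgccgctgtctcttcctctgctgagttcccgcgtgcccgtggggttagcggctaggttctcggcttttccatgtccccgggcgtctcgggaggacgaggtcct
Mkln1os: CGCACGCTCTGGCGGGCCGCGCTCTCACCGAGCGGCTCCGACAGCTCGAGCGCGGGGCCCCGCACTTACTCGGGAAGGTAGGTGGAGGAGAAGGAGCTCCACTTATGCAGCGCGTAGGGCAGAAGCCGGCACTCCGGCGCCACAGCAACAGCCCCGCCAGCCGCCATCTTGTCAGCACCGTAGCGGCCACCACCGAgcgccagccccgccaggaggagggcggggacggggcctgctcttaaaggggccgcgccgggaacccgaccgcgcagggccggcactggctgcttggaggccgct
Etaa1os: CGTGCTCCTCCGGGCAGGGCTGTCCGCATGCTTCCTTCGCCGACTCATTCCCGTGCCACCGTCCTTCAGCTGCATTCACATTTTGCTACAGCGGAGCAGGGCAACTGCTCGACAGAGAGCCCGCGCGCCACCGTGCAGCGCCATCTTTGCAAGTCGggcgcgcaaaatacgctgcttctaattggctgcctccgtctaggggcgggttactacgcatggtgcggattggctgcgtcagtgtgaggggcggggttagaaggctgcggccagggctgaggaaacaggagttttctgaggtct
Med9os: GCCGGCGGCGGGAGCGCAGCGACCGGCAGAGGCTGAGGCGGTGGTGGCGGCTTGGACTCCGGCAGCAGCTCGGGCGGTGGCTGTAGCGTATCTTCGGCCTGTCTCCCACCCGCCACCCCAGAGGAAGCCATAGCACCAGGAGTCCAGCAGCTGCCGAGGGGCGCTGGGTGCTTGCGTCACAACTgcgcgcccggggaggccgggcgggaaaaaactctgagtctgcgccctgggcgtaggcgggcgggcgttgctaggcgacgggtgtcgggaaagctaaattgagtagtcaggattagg
Wdr83os: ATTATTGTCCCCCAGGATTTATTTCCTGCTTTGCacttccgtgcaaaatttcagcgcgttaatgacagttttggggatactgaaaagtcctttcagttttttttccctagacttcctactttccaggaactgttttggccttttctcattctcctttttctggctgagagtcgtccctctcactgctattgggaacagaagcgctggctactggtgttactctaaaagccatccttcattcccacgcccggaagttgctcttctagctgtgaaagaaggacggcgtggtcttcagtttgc

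These windows lie at chr13:48967862-48968161 (plus strand) for Fam120aos, chr2:14073885-14074184 (minus) for Stamos, chr6:31398724-31399023 (minus) for Mkln1os, chr11:17953720-17954019 (plus) for Etaa1os, chr11:59948098-59948397 (minus) for Med9os and chr8:85080713-85081012 (plus) for Wdr83os. The RefSeq starts of transcript and partner were 52, 166, 55, 95, 67 and 217 bases apart, in the same order. RefSeq held a window for 53 of the 64 tested transcripts, some with more than one start, 57 windows in all. Their median GC content was 61.0% and their median number of CpG dinucleotides 16, against 52.7% and 7 over 32851 windows of all genes. The windows of Fam120aos (86.7% GC) and Wdr83os (46.0%) were the extremes of the 6.

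Of motifs searched on both strands, GGGCGG (GC box) occurred in 30 of the 57 windows of tested transcripts and in 35.7% of all windows. CCAAT occurred in 21 and in 37.4%, TATAAA in 4 and in 13.6%, and CCGGAAG (an ETS core) in 6 and in 8.86%. The 7 windows printed held them in 4, 3, 1 and 1, in the same order. These 7 were chosen, that of Rab26os for its TATAAA, so their counts cannot be set against the shares. Among them the match to CCGGAAG was in the window of Wdr83os. None of these motifs contains another, and a match is a run of letters and no measured site.

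Fam120aos rose from 486, 491 and 469.8 to 671, 747 and 609 (0.48, SE 0.12, adjusted p = 0.00379), while Fam120a, an RNA-binding scaffold protein, fell from 1096, 1054 and 1032 to 597, 688 and 636 (-0.73, SE 0.11). The ratio went from 44.4%, 46.6% and 45.5% to 112%, 109% and 95.6%, a tight change of 1.21 (SE 0.13, adjusted p = 1.6e-05). The rise of Fam120aos was lost (-0.0014) under scaling to library size, did not pass under upper quartile scaling (0.26), and was -0.02 with the length offset, where the ratio did not pass (0.32, adjusted p = 0.0566).

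Stamos had 6.89, 22.0 and 20.5 in Input and 27.5, 41.4 and 54.1 in IP (1.36, SE 0.51, adjusted p = 0.0338), and Stam, part of the machinery that sorts ubiquitinated receptors, went from 1432, 1363 and 1486 to 933, 880 and 986 (-0.61, SE 0.10). Mkln1os had 66.5, 31.0 and 50.3 against 144, 87.3 and 86.3 (1.11, SE 0.34, adjusted p = 0.0114), and Mkln1, muskelin of an E3 ubiquitin ligase complex, went from 716, 765 and 707 to 480, 476 and 494 (-0.59, SE 0.11). Stamos was at 0.482% to 1.61% of Stam in Input and 2.95% to 5.48% in IP, and Mkln1os at 4.05% to 9.29% of Mkln1 in Input and 17.5% to 29.9% in IP. The ratios rose by 1.98 (adjusted p = 0.00576) and 1.70 (adjusted p = 0.0015), and with the length offset neither passed (0.39, adjusted p = 0.562, and 0.70, adjusted p = 0.106). Stamos did not pass without Input 1 (0.87), IP 2 (1.33), IP 3 (1.14) or any of the pools (1.12, 1.61 and 1.37), under scaling to library size (0.91) or upper quartile (1.15), or with the length offset (0.16). Mkln1os did not pass without Input 2 (0.82), IP 1 (0.87) or pool 2 (0.93), under scaling to library size (0.63) or with the length offset (0.66), where the fall of Mkln1 did not pass either (-0.04).

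Among pairs in which both rose, Uchl1os had 344, 270.4 and 261 in Input and 583, 549 and 526 in IP (0.93, SE 0.14, adjusted p = 0.000106). Uchl1, an abundant neuronal deubiquitinase, went from 7652, 7006 and 6695 to 17670, 14710 and 14510 (1.13, SE 0.10). Uchl1os was at 3.86% to 4.49% of Uchl1 in Input and 3.30% to 3.73% in IP, and the ratio did not pass (-0.20, adjusted p = 0.246). Med9os had 10.4, 36.7 and 20.5 against 48.0, 39.2 and 56.2 (1.20, adjusted p = 0.0374), and Med9, a Mediator subunit, rose by 0.87. The ratio of that pair did not pass (0.33), and Med9os did not pass without Input 1 (0.76), Input 3 (1.22), IP 1 (1.19), IP 3 (1.08), pool 1 (0.75) or pool 3 (1.10).

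By position, 12 of 29 head-to-head transcripts rose (41.4%) and 3 fell (10.3%), and 8 of 26 overlapping ones rose (30.8%) and 5 fell (19.2%). Of the 5 lying apart 4 rose. Among all genes tested 31.4% were higher and 32.2% lower. Ratios rose in 11, 9 and 3 pairs of these position classes and fell in 1, 3 and 0, of 27, 26 and 4 pairs. Of all 2486 pairs, 56.4% changed in either direction. No test of position was made. Antisense RNAs known under other names gave little to set beside these: of 7 listed, 3 were tested, of which 1, Dlx1as, rose.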

How the data were processed

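Input and IP libraries of 3 pools were compared (cDNA from a SMARTer Ultralow kit, HiSeq2500). The authors deposited 1 signal value per gene and library, on a linear scale, made by dividing a read count by DESeq2 factors. STAR and DESeq2 are named as tools, without versions, and mm10 as the build in the submitters' processing notes, while the study's methods name TopHat and Cufflinks with UCSC annotated mRNAs on mm10. Which of these made the deposited values, which program counted the reads and with what strand setting is not given in the sources used here. All tables held 24972 entries. Of these, 26 carry a date in place of a symbol and make up 0.188% to 0.32% of the total in each library; these were dropped. Values are not whole reads, and the worth of 1 read (about 1.72 to 2.30) varied between genes, so no count model was used.

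A value of 1 was added and log2 values were compared in limma 3.58.1 (R 4.3.3) with variances that follow the mean level, for the 14859 genes that reached 10 in 3 or more of the 6 libraries. Pair ratios were fitted over 2486 pairs, with the lower mean level of the 2 genes as the trend. Positions, classes and lengths (longest transcript) are those of GENCODE M21. Windows are RefSeq's (GRCm38.p6). Tables were handled in Python 3.11.15 with pandas 2.3.3, and figures drawn with matplotlib 3.10.9. The code was tested on simulated data.

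Genes were named by a rule: both genes of the 8 pairs with the largest difference in fold change, the 6 largest rises and 6 largest falls that passed, the 6 highest levels, all protein-coding transcripts, all opposite pairs, the 4 partners at each end, and Rab26os, Dlx6os1, Emx2os, Six3os1 and Zeb2os. Uchl1os, Med9os, Rbm3os, Chrna1os and Chrna1 were added after their values were seen, as partners or as examples. Members and lists were chosen with earlier results of these data known.

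By the methods, Input and IP of one number come from the same pool of mice, so replicate numbers pair the libraries. Deviations from group means correlated at 0.11, 0.095 and 0.099 for the same number and at -0.083 to -0.013 for different numbers. The fit was made without a block, as the methods name none. The 20 alternatives were other scalings, filters and pseudocounts, no variance trend, a replicate block, a length offset, and each library or pool left out. Replicates are pools of mice, so p-values measure the spread between pools. Intervals on reads are exact at 95% and cover counting error only.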

Additional observations from a re-analysis of the deposited data

How the results depend on the processing

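Scaling to library size gave 13 opposite-strand transcripts higher and 15 lower, and 16 partner genes higher and 85 lower, where Brd3 turned to -0.0206 and Fam120aos to -0.0014. The median of all genes moved there from -0.06 to -0.54, and to -0.28 under upper quartile scaling. With the length offset 11 transcripts were higher and 16 lower, ratios rose in 9 pairs and fell in 13, and 2 pairs had opposite calls, over 60 transcripts and 57 pairs, since 4 transcripts have no length. Directions turned there for Ccpg1os (-0.73), Fam120aos (-0.0162) and Sp3os (-0.39) and for the ratios of Brd3os (-0.30), Ccpg1os (-0.58), Etaa1os (-0.46), Sp3os (-0.12) and Tomm6os (1.08). A value of 10 in all libraries left 2 ratios lower, with fewer pairs tested. For the other moves the cause was not tested.

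Leaving out each library or pool gave 19 to 25 transcripts higher and 4 to 9 lower, 22 to 28 partners higher and 39 to 53 lower, 17 to 24 ratios higher and 2 to 6 lower, and 3 to 8 pairs with opposite calls. In the same settings 26.6% to 31.3% of all genes were higher and 25.4% to 32.1% lower, against 31.4% and 32.2% with all libraries. Calls were thus fewer across all genes too. Fewest transcripts fell without pool 2 (4) and without Input 1, Input 2 or pool 1 (5 each). Without pool 2, 3 opposite pairs were left, and without pool 3, 2 ratios were lower. With 1 replicate block per pool, all 35 transcripts, 25 higher ratios and 7 opposite pairs kept their calls, and no other count moved by over 1.5 times. Of 1644 values of single genes and pairs under the alternatives, 1510 kept direction and side of the threshold, 97 were lost, 27 gained and 10 turned.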
